A study of Homo sapiens with 7 samples.

Results

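Resistant clone 2 was compared directly with resistant clone 4. Both are palbociclib-resistant derivatives of T47D, a human breast cancer cell line that carries the estrogen receptor. The comparison used 4 of the 7 RNA-seq libraries, 2 of each clone, chosen by the clone that the labels name. The other 3 libraries came from parental, palbociclib-sensitive T47D cells and serve here only as reference levels. Resistant cells had been kept in palbociclib for 6 months while the dose was raised from 1 uM to 5 uM. Experiments were run without the drug unless stated otherwise, per the labels' protocols, and every group grew in the same medium, which held serum, insulin, EGF and hydrocortisone. Each resistant line is 1 clone. The labels call the libraries of a clone biological replicates but do not say how the cultures were kept apart, so the p-values measure only the spread between these libraries. Of 63677 genes in the deposited table, 17502 had enough counts to be tested.

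Palbociclib blocks CDK4 and CDK6, the kinases that act with D-type cyclins to phosphorylate the retinoblastoma protein RB. Unphosphorylated RB holds E2F transcription factors in check and keeps a cell from starting DNA replication, so a cell that has lost RB no longer needs CDK4 and CDK6 for that step. Loss of RB, more CDK6, more cyclin E and stronger growth factor signalling are known routes past the drug in breast cancer cells. The comparison of the clones asks how far lines selected with the same drug differ from each other.

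Library totals were 10997625 and 15677914 counts in clone 2 and 14739350 and 12593774 in clone 4. The libraries of clone 2 lay closer together than those of clone 4: the median absolute log2 difference between replicates was 0.0992 and 0.212. A chi-square of the counts per degree of freedom, near 1 for sampling noise alone, was 1.479 for the clone 2 pair. It was 12.42 for the clone 4 pair and 5.156 to 16.41 for parental pairs. The clone 2 pair thus differed little beyond sampling noise, so its spread says little about how separate cultures would differ. Genes encoded in the mitochondrial genome took 11.5% and 11.3% of the counts in clone 2 and 12.6% and 15.6% in clone 4. The luminal markers FOXA1, GATA3, KRT8, KRT18, KRT19 and EPCAM were present in every library, as the cell line's label implies. Levels below are counts per library size, scaled by TMM (CPM), given as replicate 1 and then replicate 2. Fold changes are log2 of clone 2 over clone 4 with their standard error (SE), and adjusted p-values come from edgeR's quasi-likelihood test with Benjamini-Hochberg adjustment over all genes tested.

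The clones differed in a large part of the transcriptome, and the large differences were mostly genes with more RNA in clone 2. A gene was called at an adjusted p below 0.05, which 6396 genes (36.5% of those tested) reached: 3422 (19.6%) were higher in clone 2 and 2974 (17%) in clone 4. That order depended on the fit: RLE scaling called 3210 and 3186, DESeq2 2572 and 2683, and the clone libraries alone 3337 and 3470. At least 2-fold apart were 1305 genes higher in clone 2 (7.46%) and 621 higher in clone 4 (3.55%). At least 4-fold apart were 2.39% of genes, 362 higher in clone 2 (2.07%) and 56 higher in clone 4 (0.32%). The median log2 fold change over all genes tested was 0.03. For 72.2% of genes both libraries of one clone lay above both of the other, so a lack of overlap alone says little about a gene here. The number of calls rested on the close clone 2 libraries: it came to 3621 when replicate 1 of clone 2 was left out and to 3289 when replicate 2 was. A test against a fold of 1.5 called 1393 genes.

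**Figure D1:**
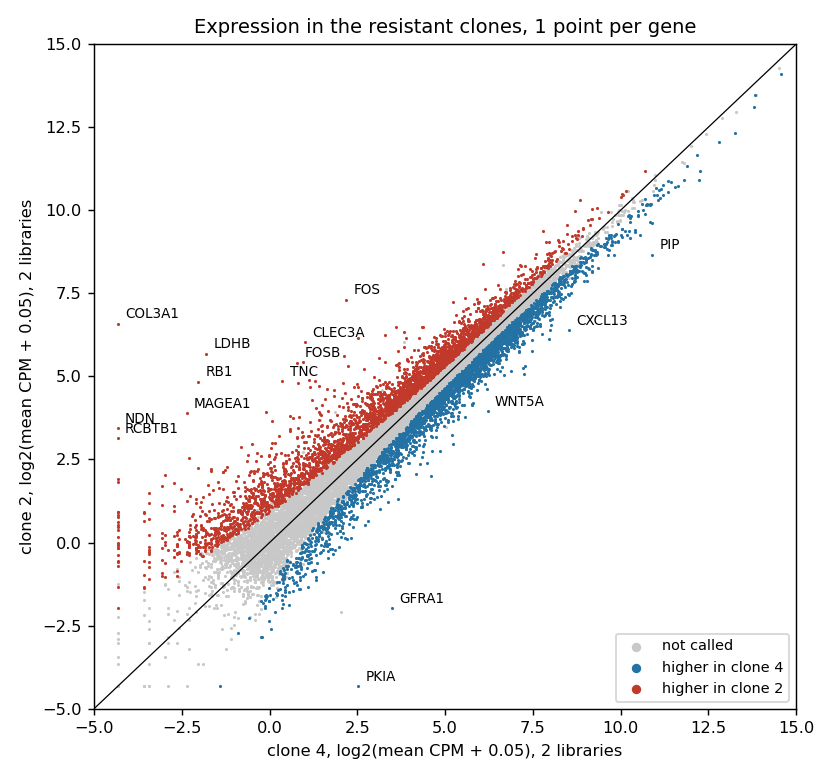
Mean level of each tested gene in clone 4 (horizontal axis) and clone 2 (vertical axis), both as log2(mean CPM + 0.05) over 2 libraries, coloured by call. Points far from the diagonal lie mostly above it, where 362 genes were at least 4-fold higher in clone 2 against 56 in clone 4, and COL3A1, RB1, LDHB, NDN and RCBTB1 stand near the left edge.

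A few genes were on in one clone and at or near 0 in the other. With 0 to 3 counts over both libraries of one clone and at least 100 over both of the other, 6 genes were on in clone 2 and 1 in clone 4. COL3A1, which encodes a fibrillar collagen of connective tissue, had 1209 and 1499 counts in clone 2 and 0 in both clone 4 libraries, at least 925-fold higher in clone 2 (bounds take 3 counts over a group as the floor). Parental cells had 1 count in all, so of these 7 libraries more than 1 count stood only in those of clone 2. NDN, the imprinted gene of the growth suppressor necdin, had 141 and 161 counts in clone 2 and 0 in clone 4, at least 103-fold higher. RCBTB1, a gene of chromosome 13, had 101 and 150 counts against 0, at least 85.7-fold higher. Both of these were also on in the parental libraries, where their mean levels were 39.2 and 21.1 CPM beside 10.8 and 8.73 CPM in clone 2, so clone 2 lay below the parental level too. GBA3, a cytosolic beta-glucosidase, and LRP2, the endocytic receptor megalin, were at least 35.2-fold and 34.2-fold higher in clone 2. BATF, an AP-1 family transcription factor, had 117 counts in clone 2 and 2 in clone 4, a ratio of 59.9 (95% interval 16.2 to 501, counting error only).

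LDHB, the lactate dehydrogenase subunit that favours turning lactate into pyruvate, was close to this pattern. Its level was 52.9 and 49.3 CPM in clone 2 and 0.137 and 0.334 CPM in clone 4, or 7.76 on the log2 scale (SE 0.25, adjusted p = 4.85e-10). Parental libraries held 65.2 to 75.4 CPM, above both clones but near the level of clone 2. The genes on either side did not share it: GOLT1B was at 39.8 and 40.2 CPM and ABCC9 at 13.9 and 13.9 CPM as means in clone 2 and clone 4. LDHA, the partner subunit, was at 344 and 351 CPM in clone 2 and 423 and 378 CPM in clone 4 and was not called (-0.21, adjusted p = 0.156). MAGEA1, a cancer-testis gene of the X chromosome, was at 16.2 and 13.5 CPM in clone 2 against 0.206 and 0.0835 CPM in clone 4 (6.54, SE 0.34, adjusted p = 4.5e-08). Near-identical copies of the MAGEA family may share reads.

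The promoters of LDHB, NDN and RCBTB1 are shown because they stand at the starts of genes that clone 4 had at or near 0. They are the 250 bases before the annotated start, 5′ to 3′ on the gene's strand, from RefSeq's GRCh38.p14 table, with each CG dinucleotide, the place of DNA methylation, in capitals.
LDHB: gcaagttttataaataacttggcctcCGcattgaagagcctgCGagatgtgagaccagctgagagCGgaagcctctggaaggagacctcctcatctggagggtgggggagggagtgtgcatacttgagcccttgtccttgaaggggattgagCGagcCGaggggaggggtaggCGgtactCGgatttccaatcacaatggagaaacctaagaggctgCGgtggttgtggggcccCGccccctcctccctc
NDN: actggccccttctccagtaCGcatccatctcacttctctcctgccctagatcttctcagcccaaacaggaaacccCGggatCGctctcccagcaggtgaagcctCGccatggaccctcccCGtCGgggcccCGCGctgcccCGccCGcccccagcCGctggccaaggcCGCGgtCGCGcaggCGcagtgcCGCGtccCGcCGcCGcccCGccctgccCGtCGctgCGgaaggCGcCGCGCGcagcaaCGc
RCBTB1: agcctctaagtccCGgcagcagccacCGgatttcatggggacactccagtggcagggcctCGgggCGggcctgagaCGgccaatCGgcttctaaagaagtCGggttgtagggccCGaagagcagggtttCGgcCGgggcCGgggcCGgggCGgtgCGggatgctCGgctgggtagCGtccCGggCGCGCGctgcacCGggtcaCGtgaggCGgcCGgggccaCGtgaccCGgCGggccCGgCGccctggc
They lie at chr12:21657843-21658092, chr15:23687306-23687555 and chr13:49585559-49585808, all on the minus strand. The LDHB window holds 9 CG dinucleotides, close to the median of 11 over 27305 promoters of the same length (quartiles 3 and 23). The NDN and RCBTB1 windows hold 30 and 29, above the upper quartile. DNA methylation was not measured in these libraries.

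**Figure D2:**
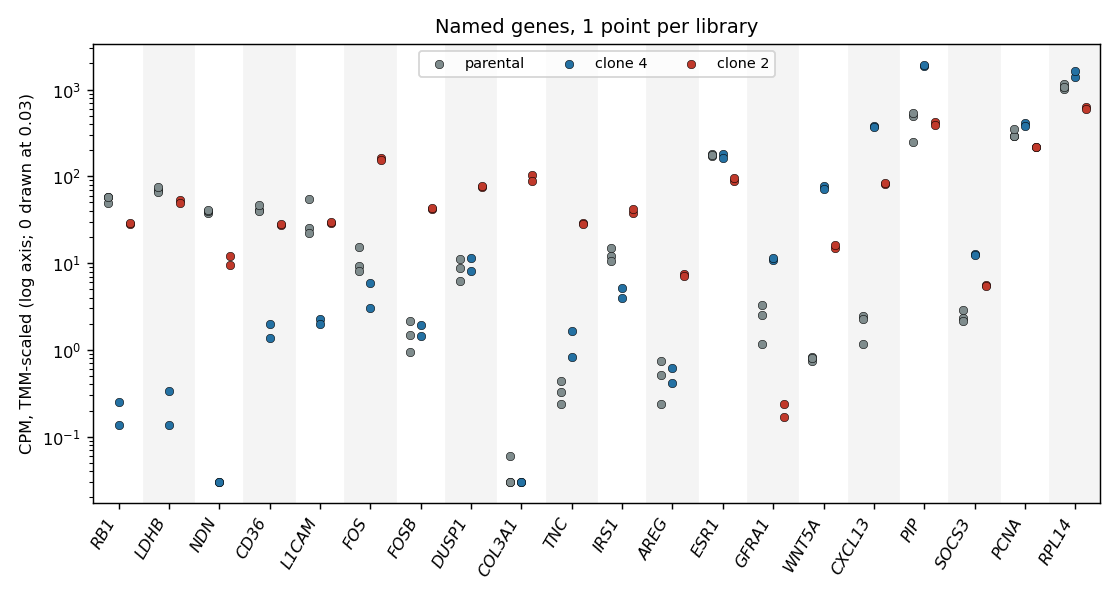
Level of 20 named genes in each library, in TMM-scaled CPM on a log axis, with 3 parental, 2 clone 4 and 2 clone 2 libraries as points and a level of 0 drawn at 0.03. RB1, LDHB and NDN are at or near 0 in clone 4 and lower in clone 2 than in parental libraries, FOS, FOSB, DUSP1, TNC and AREG are high in clone 2 only, and GFRA1, WNT5A, CXCL13 and PIP are higher in clone 4 than in clone 2.

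RB1, the gene of the RB protein, was nearly absent from clone 4 and present in clone 2. Its level was 28.3 and 29.1 CPM in clone 2 and 0.137 and 0.2504 CPM in clone 4, or 7.18 on the log2 scale (SE 0.27, adjusted p = 1.22e-09). Both clones lay below the parental mean of 55.2 CPM. ITM2B, the nearest tested gene before RB1 in chromosome order, was at 163 and 157 CPM in clone 2 and 117 and 98.0 CPM in clone 4 (0.57, SE 0.13, adjusted p = 0.00401). LPAR6 and RCBTB2, which overlap RB1 in the GENCODE annotation, had mean levels of 1.84 and 1.09 CPM in clone 2 and 0 and 0.172 CPM in clone 4. Without a known strand setting their reads cannot be told apart from those of RB1. Beyond them FNDC3A was 21.2 and 21.7 CPM in clone 2 and 11.5 and 9.43 CPM in clone 4 (1.03, SE 0.16, adjusted p = 0.000324). CDADC1, next in order, went the other way, at 5.76 CPM in clone 2 and 8.92 CPM in clone 4, though its call ended when clone 2 replicate 1 or 2 or clone 4 replicate 2 was left out (adjusted p = 0.069, 0.14 and 0.0529). CAB39L, farther along, was at 16.8 and 18.2 CPM against 2.75 and 2.84 CPM (2.65, SE 0.18, adjusted p = 4.62e-07). RCBTB1, at 0 in clone 4, lies 8 tested genes beyond RB1, and PHF11 and ARL11 on its 2 sides were not called. The near absence in clone 4 was thus not shared by all genes of the stretch.

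PKIA, the gene of a small protein that inhibits protein kinase A, was the 1 gene on in clone 4 and at 0 in clone 2. It had 85 and 67 counts in clone 4 and 0 in both clone 2 libraries, at least 49.4-fold higher in clone 4. Parental libraries had 1917 to 2374 counts, so both clones held far less. Its neighbours ZC2HC1A and IL7 on chromosome 8 followed the same order. HEY1, beyond IL7, was called higher in clone 2, at mean levels of 1.07 CPM there and 0.366 CPM in clone 4 (1.46). ZC2HC1A, a zinc finger gene, was at 4.61 and 5.60 CPM in clone 2, 21.1 and 17.9 CPM in clone 4 and 114 to 134 CPM in parental libraries (-1.92, SE 0.16, adjusted p = 3.6e-06). IL7, the gene of the lymphocyte growth factor interleukin 7, was at 1.37 and 2.06 CPM in clone 2, 6.25 and 4.01 CPM in clone 4 and 34.5 to 38.8 CPM in parental libraries (-1.55, SE 0.27, adjusted p = 0.000643). PEX2 on the other side was at 37.1 CPM in clone 2 and 30.8 CPM in clone 4 and was not called, except when clone 4 replicate 1 was left out (0.48, adjusted p = 0.026).

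Among the CDK4/6-RB genes, CDK6, cyclin D1 and several inhibitors were higher in clone 2. Of 25 tested list members 9 were higher in clone 2 and 2 in clone 4, a share called of 44% beside 36.5% over all genes, and the median log2 fold change was -0.03. CDK6, a target of palbociclib, was at 14.5 and 16.3 CPM in clone 2 and 5.98 and 6.93 CPM in clone 4 (1.26, SE 0.21, adjusted p = 0.000453). CCND1, which encodes cyclin D1, was at 273 and 266 CPM against 147 and 151 CPM (0.86, SE 0.11, adjusted p = 8.66e-05). CDKN1A, which encodes the inhibitor p21, was at 102 and 101 CPM against 47.3 and 43.6 CPM (1.16, SE 0.11, adjusted p = 8.67e-06). The inhibitors CDKN1B and CDKN2B and the RB relative RBL2 were also higher in clone 2, by 0.52, 0.80 and 0.81 on the log2 scale, as was the E2F partner TFDP1, by 0.84. CDKN1B missed the threshold when clone 2 replicate 1 or 2 or clone 4 replicate 2 was left out (adjusted p = 0.0616, 0.114 and 0.138). The drug target CDK4 was not called (-0.21, SE 0.11, adjusted p = 0.152), though a fit of the 4 clone libraries alone called it higher in clone 4 (-0.24, adjusted p = 0.0491). RB1 and TFDP1 lie on chromosome 13 and RBL2 on chromosome 16, 2 chromosomes on which most called genes were higher in clone 2. Without the chromosome 13 genes the counts were 7 and 2 of 23. Without parental replicate 3 they were 10 and 6 of 25, and a fit of the clone libraries alone gave 9 and 7.

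E2F1, an activator of S-phase genes that RB holds back, was lower in clone 2. Its level was 89.3 and 92.0 CPM in clone 2 and 123 and 144 CPM in clone 4 (-0.56, SE 0.12, adjusted p = 0.00235). The cyclin E genes, whose proteins activate CDK2, went opposite ways. CCNE2 was at 49.1 and 50.97 CPM against 77.1 and 82.4 CPM in clone 4 (-0.67, SE 0.16, adjusted p = 0.00454), while CCNE1 was at 22.02 and 27.0 CPM against 14.2 and 18.5 CPM (0.59, SE 0.17, adjusted p = 0.0172). CCNE1 missed the threshold when clone 2 replicate 2 (adjusted p = 0.211) or clone 4 replicate 1 (adjusted p = 0.13) was left out.

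DNA replication genes that were called were mostly higher in clone 4, by small folds. Of 35 tested members 14 were higher in clone 4, 2 were higher in clone 2 and 19 were not called. Called members were 45.7% of those tested, beside 36.5% over all genes. Their list had a median of -0.25 beside 0.03 over all genes, and no member was called and 2-fold apart. PCNA, the sliding clamp of the replication fork, was at 220.2 and 219 CPM in clone 2 and 408 and 381 CPM in clone 4 (-0.85, SE 0.12, adjusted p = 0.000128). GINS1 and CDC45, parts of the replicative helicase, were at -0.72 (SE 0.15, adjusted p = 0.00203) and -0.64 (SE 0.13, adjusted p = 0.00235) on the log2 scale. The 2 members higher in clone 2 were ORC6 on chromosome 16 and RFC3 on chromosome 13. RFC3 missed the threshold when any 1 clone library was left out (adjusted p from 0.0523 to 0.157), and ORC6 when clone 2 replicate 2 or clone 4 replicate 1 was (0.0927 and 0.0536). Without clone 2 replicate 1 or 2 the counts higher in clone 4 were 8 and 7, and without clone 4 replicate 1 the count was 9. A test against a fold of 1.5 called none of the list.

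Genes of mitosis split. Of 30 tested members 6 were higher in clone 2 and 4 in clone 4, near the shares over all genes. PLK1, the polo-like kinase of mitotic entry, was at 125 and 125 CPM in clone 2 and 45.7 and 46.1 CPM in clone 4 (1.45, SE 0.15, adjusted p = 1.81e-05), and it lies on chromosome 16. UBE2C, the ubiquitin-conjugating enzyme that acts with the anaphase-promoting complex, was at 180.2 and 177 CPM against 327 and 398 CPM (-1.02, SE 0.16, adjusted p = 0.000269). The proliferation marker MKI67 was at 0.34 and not called, but it was called with no filter beyond 1 count, in a fit of the 4 clone libraries alone and without parental replicate 3 (adjusted p = 0.0265, 0.0265 and 0.0262). With clone 2 replicate 1 or 2 left out the list's counts were 4 and 2 or 3 and 3. They were 9 and 7 without parental replicate 3 or with the clone libraries alone, and 9 and 4 with no filter beyond 1 count.

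Immediate early genes, which growth factors and stress switch on within minutes, were higher in clone 2. Of 25 tested members of the AP-1 and immediate early list 16 were higher in clone 2 and none in clone 4. That was 64% called beside 36.5% over all genes, with a median log2 fold change of 1.07 in the list. FOS, an AP-1 subunit, was at 163 and 154 CPM in clone 2 and 5.98 and 3.01 CPM in clone 4 (5.11, SE 0.30, adjusted p = 2.04e-06). FOSB, its close relative, was at 42.0 and 43.3 CPM in clone 2 and 1.44 and 1.92 CPM in clone 4 (4.67, SE 0.23, adjusted p = 3.46e-08). Parental levels of both were near those of clone 4, at 8.14 to 15.3 CPM for FOS and 0.953 to 2.15 CPM for FOSB. JUN, the partner of FOS, was at 117 and 115 CPM against 42.5 and 37.6 CPM (1.53, SE 0.11, adjusted p = 9.61e-07). KLF4, a zinc finger transcription factor, was at 42.9 and 41.8 CPM against 13.1 and 12.5 CPM (1.72, SE 0.19, adjusted p = 2.76e-05). EGR1 was low throughout, at 2.82 and 2.596 CPM in clone 2 and 1.10 and 0.918 CPM in clone 4 (1.40, SE 0.34, adjusted p = 0.00616). MYC, a regulator of growth, was at 155 and 155 CPM against 92.3 and 85.6 CPM (0.80, SE 0.11, adjusted p = 0.000105). FOSL1 and ATF3, at -0.72 and 0.33, were not called. Leaving out any 1 library gave 15 to 18 members higher in clone 2, and 1 higher in clone 4 only without clone 4 replicate 1.

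The promoters of FOS, FOSB and EGR1 are shown because serum response factor and CREB, the factors that carry growth factor signals to such genes, have known DNA motifs. Each sequence is the 250 bases before the start from RefSeq's GRCh38.p14 table, with CArG boxes, the motif of serum response factor, and TGACGT, the core motif of CREB, in capitals on either strand.
FOS: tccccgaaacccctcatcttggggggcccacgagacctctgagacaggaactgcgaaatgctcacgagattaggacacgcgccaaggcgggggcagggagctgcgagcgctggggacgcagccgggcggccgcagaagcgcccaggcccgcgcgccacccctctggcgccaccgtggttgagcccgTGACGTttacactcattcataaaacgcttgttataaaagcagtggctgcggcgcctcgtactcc
FOSB: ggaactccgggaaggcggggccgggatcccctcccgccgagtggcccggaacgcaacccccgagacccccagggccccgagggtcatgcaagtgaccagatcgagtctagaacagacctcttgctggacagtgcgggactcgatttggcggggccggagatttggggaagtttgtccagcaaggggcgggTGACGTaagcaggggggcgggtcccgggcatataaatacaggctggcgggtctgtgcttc
EGR1: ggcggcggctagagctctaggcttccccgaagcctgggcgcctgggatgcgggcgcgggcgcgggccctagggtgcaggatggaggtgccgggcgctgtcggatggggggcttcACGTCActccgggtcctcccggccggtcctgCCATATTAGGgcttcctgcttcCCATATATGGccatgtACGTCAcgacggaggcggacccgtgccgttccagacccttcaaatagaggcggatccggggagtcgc
They lie at chr14:75278578-75278827, chr19:45467746-45467995 and chr5:138465229-138465478 on the plus strand. Of 29 list members 21 matched the table. TGACGT was found in 7 of these 21 and in 7.42% of 27305 promoters of the same length. The 7 were FOS, FOSB, FOSL2 and EGR1, which were higher in clone 2, JUND, which was not called, and EGR4 and NR4A3, which had too few counts to test. The other matched members that were higher in clone 2, such as JUN, JUNB and KLF4, held none. A CArG box was found in 2 of 21, EGR1 and SRF, and in 1.14% of all promoters. TGACTCA, the AP-1 motif, was found in none of the 21 and in 4.16% of all. The motifs searched do not overlap one another, and a match is not a measured binding site. Bases farther from the start than these 250 were not searched, so a gene without a match here may hold a site elsewhere.

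Genes of the ERK brake list were mostly higher in clone 2 as well. It holds MAP kinase phosphatase, Sprouty and Spred genes, and ERK targets such as ETV5 that are not brakes themselves. Of 17 tested members 10 were higher in clone 2 and none in clone 4, or 58.8% called beside 36.5% over all genes. DUSP1, a phosphatase that inactivates MAP kinases, was at 75.3 and 76.3 CPM in clone 2 and 11.3 and 8.10 CPM in clone 4 (2.95, SE 0.20, adjusted p = 4.89e-07). DUSP6, SPRY4 and DUSP16, further members of the list, had log2 fold changes of 0.74, 0.78 and 0.99. SPRY4 missed the threshold when replicate 1 of clone 2 or of clone 4 was left out (adjusted p = 0.128 and 0.0814) and with DESeq2 (0.0692). SPRY2 and ETV4, at -0.39 and -0.56, were not called. Leaving out clone 2 replicate 1 gave 6 higher in clone 2. Against a fold of 1.5 the test called 1.

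Most tested ligands of the EGF receptor family were higher in clone 2, while its receptors differed from one another. In the list of both, 71.4% of tested members were called, beside 36.5% over all genes. AREG, which encodes amphiregulin, was at 7.51 and 7.14 CPM in clone 2 and 0.618 and 0.417 CPM in clone 4 (3.77, SE 0.35, adjusted p = 8.09e-06). EGF, TGFA, HBEGF, BTC and EPGN, other ligands, had log2 fold changes of 0.63, 0.88, 0.81, 2.48 and 2.84, while the ligand NRG4 was not called (0.36, adjusted p = 0.326). BTC and EPGN missed the threshold when clone 2 replicate 2 was left out (adjusted p = 0.11 and 0.0669). The call of EGF ended when clone 2 replicate 1 or 2 or clone 4 replicate 2 was left out (adjusted p = 0.106, 0.0949 and 0.113), and that of HBEGF when any 1 clone library was (from 0.0717 to 0.186), with DESeq2 (0.207) and with no filter beyond 1 count (0.0587). EGFR and ERBB2 were at -0.12 and 0.22 and were not called. ERBB4, a receptor of the neuregulins, was higher in clone 2, at 38.6 and 38.7 CPM there and 22.7 and 17.2 CPM in clone 4 (0.95, SE 0.15, adjusted p = 0.00037). ERBB3 was higher in clone 4, at 326 and 316 CPM there and 247 and 251 CPM in clone 2 (-0.37, SE 0.11, adjusted p = 0.0189), and so was LRIG3, of a family that regulates these receptors (-0.91, SE 0.12, adjusted p = 0.000106). ERBB3 was not called when clone 2 replicate 1 or 2 or clone 4 replicate 1 was left out (adjusted p = 0.139, 0.129 and 0.055). In all, 7 of 14 members were higher in clone 2 and 3 in clone 4, and without clone 2 replicate 2 the counts were 3 and 2.

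A co-receptor of the RET kinase was the most unequal gene of the FGF, IGF and RET list. GFRA1, which binds GDNF and presents it to RET, was at 0.171 and 0.236 CPM in clone 2 and 10.9 and 11.4 CPM in clone 4 (-5.67, SE 0.46, adjusted p = 2.4e-06). Parental libraries held 1.17 to 3.30 CPM, between the clones. RET was at 10.1 and 9.03 CPM in clone 2 and 12.2 and 14.1 CPM in clone 4 (-0.46, SE 0.17, adjusted p = 0.0488), and it was not called when clone 2 replicate 1 or 2, clone 4 replicate 2 or parental replicate 1 or 2 was left out (adjusted p = 0.132, 0.313, 0.203, 0.0599 and 0.0547), with DESeq2 (0.115) or with no filter beyond 1 count (0.0826). IRS1, the adaptor of insulin and IGF receptors, was at 37.9 and 41.5 CPM in clone 2 and 5.22 and 4.01 CPM in clone 4 (3.09, SE 0.19, adjusted p = 2.1e-07). Its parental levels of 10.6 to 14.9 CPM also lay between the clones. The FGF receptor genes FGFR1, FGFR2, FGFR3 and FGFR4 were each higher in clone 2, by 0.52, 0.63, 1.09 and 0.54 on the log2 scale, and EPHA2, an ephrin receptor, by 1.24. FGFR4 missed the threshold when any 1 clone library was left out (adjusted p from 0.0671 to 0.144) and with DESeq2 (0.0663), and FGFR1 when clone 2 replicate 1 or 2 or clone 4 replicate 1 was (0.069, 0.125 and 0.133). Over the list 9 of 19 members were higher in clone 2 and 5 in clone 4, or 73.7% called beside 36.5% over all genes. Without clone 2 replicate 1 the counts were 6 and 1, leaving out clone 2 replicate 2 gave 5 and 2, and leaving out clone 4 replicate 2 gave 7 and 1.

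The estrogen receptor gene was lower in clone 2, while the genes of its partner factors FOXA1 and GATA3 were not called. ESR1 was at 88.4 and 94.99 CPM in clone 2 and 179 and 162 CPM in clone 4 (-0.89, SE 0.11, adjusted p = 4.9e-05), and clone 4 lay at the parental level of 169 to 183 CPM. These factors, which act with the receptor on DNA, were at -0.06 (SE 0.10) and -0.05 (SE 0.10), neither of them called. PGR, the progesterone receptor gene, was at 215 and 231 CPM in clone 2 and 297 and 199 CPM in clone 4 and was not called (-0.15, SE 0.22, adjusted p = 0.623). ELF3, an epithelial transcription factor, was at 141 and 146 CPM against 55.3 and 57.1 CPM (1.36, SE 0.10, adjusted p = 1.55e-06). CDH1, which encodes E-cadherin and lies on chromosome 16, was at 379.7 and 369 CPM against 262 and 228 CPM (0.61, SE 0.12, adjusted p = 0.00137). KRT18, a keratin of luminal cells, was higher in clone 4 (-0.74, SE 0.16, adjusted p = 0.00318). The luminal factor list had 44% of its tested members called, beside 36.5% over all genes. Of 25 tested luminal factors 6 were higher in clone 2 and 5 in clone 4, and without clone 2 replicate 1 or 2 the counts were 5 and 2 in each case.

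Estrogen-regulated genes did not follow ESR1 in 1 direction. Of 36 tested members 13 were higher in clone 2 and 5 in clone 4, or 50% called beside 36.5% over all genes. PDZK1, a scaffold protein, was at 54.3 and 54.7 CPM in clone 2 and 12.02 and 13.1 CPM in clone 4 (2.12, SE 0.19, adjusted p = 6.54e-06). SERPINA1, the protease inhibitor antitrypsin, was at 676 and 642 CPM against 251 and 188 CPM (1.59, SE 0.24, adjusted p = 0.000815). The classical targets TFF1 and GREB1 were at -0.16 and 0.16, neither of them called. FHL2, a cofactor, was higher in clone 4, at 105 and 87.4 CPM there and 49.5 and 50.7 CPM in clone 2 (-0.94, SE 0.12, adjusted p = 7.58e-05). AREG, IRS1 and CCND1, described above, belong to this list too. Without 1 clone library at a time the count higher in clone 4 fell to between 1 and 3.

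Secreted proteins of apocrine breast cells separated the clones by gene. PIP, the prolactin-induced protein, was at 424 and 387 CPM in clone 2 and 1885 and 1925 CPM in clone 4 (-2.23, SE 0.34, adjusted p = 0.00222). AZGP1, a zinc-binding glycoprotein, was at 599 and 559.7 CPM against 1266 and 1205 CPM (-1.09, SE 0.32, adjusted p = 0.0347), a call that ended when any 1 clone library was left out (adjusted p from 0.14 to 0.198) or with no filter beyond 1 count (0.176). CLEC3A, a C-type lectin, went the other way, at 67.2 and 63.4 CPM in clone 2 and 2.13 and 1.84 CPM in clone 4 (5.03, SE 0.17, adjusted p = 4.85e-10). SCGB2A2, which encodes mammaglobin, and TAT, tyrosine aminotransferase, were higher in clone 2 by 1.89 and 3.25 on the log2 scale. Of 22 tested members 9 were higher in clone 2 and 4 in clone 4, or 59.1% called beside 36.5% over all genes. With replicate 2 of clone 2 or of clone 4 left out the counts higher in clone 4 were 1 and 2.

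Genes of extracellular matrix and of mesenchymal cells were higher in clone 2. Of 24 tested members of the mesenchymal list 13 were higher in clone 2 and 1 in clone 4, with a median log2 fold change of 0.69. Called members made up 58.3% of those tested, beside 36.5% over all genes. TNC, the matrix protein tenascin C, was at 29.01 and 28.4 CPM in clone 2 and 1.65 and 0.835 CPM in clone 4 (4.49, SE 0.24, adjusted p = 7.36e-08). SPARC, a collagen-binding matrix protein, was at 4.52 and 4.54 CPM against 0.481 and 0.2504 CPM (3.56, SE 0.46, adjusted p = 8.83e-05). CALD1, which encodes the actin-binding caldesmon, was at 14.1 and 13.5 CPM against 1.79 and 1.67 CPM (2.98, SE 0.21, adjusted p = 7.65e-07). VIM, the gene of vimentin, stayed low, at 3.93 and 4.19 CPM in clone 2 and 0.824 and 1.00 CPM in clone 4 (2.16, SE 0.30, adjusted p = 0.000133). TAGLN, an actin-binding protein of smooth muscle, was the 1 member higher in clone 4 (-0.84, SE 0.18, adjusted p = 0.00251). SNAI1, a transcription factor that drives a mesenchymal change, was at 0.00 and not called, and its relatives in function SNAI2, TWIST1, ZEB1 and ZEB2 had too few counts to test.

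Collagens went both ways. COL5A2, which lies next to COL3A1 on chromosome 2, was at 24.8 and 23.7 CPM in clone 2 and 3.23 and 3.76 CPM in clone 4 (2.80, SE 0.17, adjusted p = 2.29e-07). On the other side of COL3A1, GULP1, an adaptor for engulfing dead cells, had a log2 fold change of 1.20. COL5A1 was at 5.12 and 5.72 CPM against 0.756 and 0.668 CPM (2.91, SE 0.32, adjusted p = 2.38e-05). COL12A1 was the reverse, at 67.4 and 73.2 CPM in clone 2 and 274 and 226 CPM in clone 4 (-1.83, SE 0.13, adjusted p = 1.02e-06). In all 8 of 18 collagens were higher in clone 2 and 3 in clone 4, or 61.1% called beside 36.5% over all genes. COL21A1 had 61 counts in clone 2 and 1 in clone 4, a ratio of 62.5 (95% interval 10.8 to 2510).

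Laminin, integrin and basal epithelial genes were also higher in clone 2. Shares called were 60.9% for integrins and laminins and 71.4% for basal genes, beside 36.5% over all genes. ITGB6, an integrin subunit of epithelia, was at 3.93 and 4.84 CPM in clone 2 and 0.275 and 0.2504 CPM in clone 4 (4.02, SE 0.39, adjusted p = 1.13e-05). Among integrins and laminins 13 of 23 members were higher in clone 2 and 1 in clone 4, and without either clone 2 library the count higher in clone 2 was 8. TRIM29, a basal cell marker, was at 19.3 and 19.4 CPM against 2.27 and 2.25 CPM (3.09, SE 0.19, adjusted p = 2.29e-07). TP63, the transcription factor of basal cells, stayed near 1 CPM, at 1.19 and 1.59 CPM against 0.0687 and 0.2504 CPM (3.16, SE 0.61, adjusted p = 0.00145). Of 14 tested basal genes 9 were higher in clone 2 and 1, SFN, in clone 4, while KRT14, KRT17 and KRT6A had too few counts to test. After clone 2 replicate 2 was left out no basal gene was called higher in clone 4, and without parental replicate 3 the count was 2.

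Markers of other cell types differed between the clones in both directions. The 10 fibroblast markers other than COL3A1 and COL1A1 summed to 10.6 and 13 CPM in clone 2, 2.44 and 1.91 CPM in clone 4 and 2.01 to 3.14 CPM in parental libraries. Of 12 markers, 3 were at 0 in each clone 2 library and 6 in each clone 4 library. FAP and POSTN, which define activated fibroblasts, were at 0 in every library. The 14 leukocyte markers summed to 22.6 and 19.9 CPM in clone 2 and 15.5 and 14.4 CPM in clone 4, with TYROBP at 0 in every library. CD68, a macrophage marker in that set, was nevertheless higher in clone 4 (-1.06, SE 0.28, adjusted p = 0.00863). The 10 endothelial markers summed to 5.46 and 4.15 CPM in clone 2, 6.85 and 6.75 CPM in clone 4 and 1.83 to 3.36 CPM in parental libraries, and PECAM1, which defines endothelium, was at 0 throughout. CLDN5, a tight junction protein among them, was higher in clone 4 (-1.45, SE 0.34, adjusted p = 0.00454). Neither CD68 nor CLDN5 was called without clone 2 replicate 2 (adjusted p = 0.173 and 0.0944). The part of these markers in the matrix and inflammatory results was not tested.

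**Figure D3:**
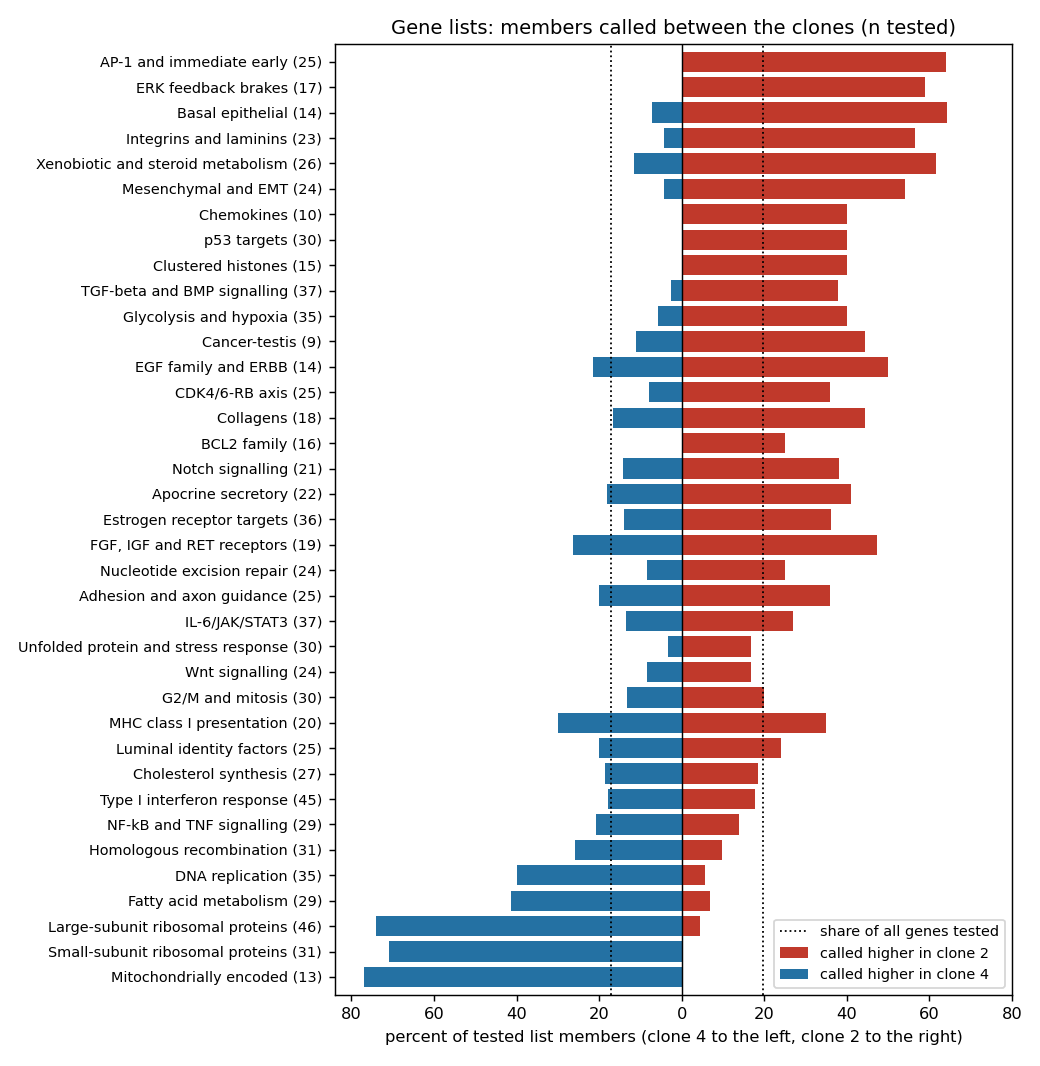
Share of the tested members of each gene list with at least 9 tested members called higher in clone 2 (red, right) or clone 4 (blue, left), with the number tested in brackets and dotted lines at the shares over all genes, 19.6% and 17%. Basal epithelial, immediate early, xenobiotic and ERK brake lists reach farthest to the right, and ribosomal protein and mitochondrially encoded genes farthest to the left.

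Interferon-stimulated genes, which encode antiviral proteins, did not lean to either clone. Of 45 tested members 8 were higher in clone 2 and 8 in clone 4, or 35.6% called beside 36.5% over all genes. The members had a median log2 fold change of 0.05. Above the parental level in both clones were 43 of them, beside 6114 of all 17502 genes tested. IFI27 was at 1056 and 977 CPM in clone 2 and 434 and 399 CPM in clone 4 (1.29, SE 0.14, adjusted p = 2.68e-05). EPSTI1, on chromosome 13, was at 3.16 and 3.42 CPM against 0.618 and 1.00 CPM (2.04, SE 0.37, adjusted p = 0.000839). ISG15, a ubiquitin-like modifier, was at 161 and 149 CPM in clone 2 and 235 and 237 CPM in clone 4 (-0.61, SE 0.11, adjusted p = 0.001). IFITM1, a membrane protein that blocks virus entry, and IRF7, a regulator of interferon genes, were also higher in clone 4 (-1.07, SE 0.16, adjusted p = 0.000198 and -0.87, SE 0.14, adjusted p = 0.000314). These genes varied between the clone 4 libraries, replicate 1 being higher for 39 of 45, beside 9233 of 17502 over all genes. The median log2 difference was 0.38 in the list and 0.02 over all genes. The counts moved accordingly: 15 and 5 without clone 4 replicate 1, 4 and 9 with clone 4 replicate 2 left out, 4 and 3 with clone 2 replicate 1 left out, and 5 and 3 with clone 2 replicate 2 left out.

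MHC class I presentation, which shows peptides to T cells, had called members in both directions. B2M, the light chain of the surface molecules, was at 673 and 657 CPM in clone 2 and 477 and 406 CPM in clone 4 (0.59, SE 0.11, adjusted p = 0.00102). NLRC5, the activator of MHC class I genes, was at 22.7 and 24.4 CPM against 7.97 and 7.18 CPM (1.63, SE 0.24, adjusted p = 0.000193) and lies on chromosome 16. PSMB9, an immunoproteasome subunit, was at 21.8 and 20.8 CPM in clone 2 and 36.7 and 36.9 CPM in clone 4 (-0.79, SE 0.13, adjusted p = 0.000368), and the proteasome activator PSME2 had a log2 fold change of -0.84. In total 7 of 20 members were higher in clone 2 and 6 in clone 4, or 65% called beside 36.5% over all genes. RLE scaling gave 5 and 7, and without either clone 2 library the counts were 4 and 4, while leaving out clone 4 replicate 2 gave 4 and 6.

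STAT3 and its feedback inhibitor went opposite ways. STAT3 was at 142 and 143 CPM in clone 2 and 107 and 98.3 CPM in clone 4 (0.47, SE 0.10, adjusted p = 0.00323). SOCS3, which STAT3 induces and which blocks JAK kinases, was at 5.63 and 5.43 CPM in clone 2 and 12.6 and 12.4 CPM in clone 4 (-1.17, SE 0.19, adjusted p = 0.000396). Both clones lay above the parental SOCS3 level of 2.13 to 2.91 CPM. JAK1, a kinase that activates STAT3, was at 61.7 and 63.9 CPM against 33.5 and 30.9 CPM (0.96, SE 0.12, adjusted p = 4.85e-05), with clone 2 at the parental level of 56.4 to 63.9 CPM. IL6ST, the shared receptor chain of the IL-6 family, was higher in clone 4 (-0.53), but not when replicate 1 of clone 2 or of clone 4 was left out (adjusted p = 0.102 and 0.0728). Over the IL-6/JAK/STAT3 list 10 of 37 members were higher in clone 2 and 5 in clone 4, with a median of 0.03. The share called was 40.5%, near the 36.5% over all genes. With replicate 1 of clone 2 or of clone 4 left out the counts higher in clone 4 were 3 and 3. JUNB and MYC are in this list and among the immediate early genes.

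Chemokines, which draw immune cells, included a pair with opposite patterns. CXCL13, the B cell attractant, was at 82.3 and 84.3 CPM in clone 2 and 377 and 367 CPM in clone 4 (-2.16, SE 0.14, adjusted p = 3.11e-07), against 1.17 to 2.48 CPM in parental libraries. CCL28, a mucosal chemokine, was at 28.3 and 22.9 CPM in clone 2 and 5.22 and 5.34 CPM in clone 4 (2.27, SE 0.18, adjusted p = 1.58e-06). CXCL13 was named for its fold and is not in the chemokine list. Of that list's 10 tested members 4 were higher in clone 2 and none in clone 4, or 40% called beside 36.5% of all genes. DESeq2, and the fit without clone 2 replicate 2, each called 2 of them. The NF-kB list had 4 of 29 members higher in clone 2 and 6 in clone 4, a share called of 34.5%, near the 36.5% over all genes. With the clone 2 libraries left out in turn its counts were 2 and 3 and 0 and 2, and without clone 4 replicate 2 they were 2 and 2.

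Wnt genes included a ligand higher in clone 4 and a secreted inhibitor higher in clone 2. WNT5A, a ligand of non-canonical Wnt signalling, was at 14.8 and 15.99 CPM in clone 2 and 77.0 and 71.5 CPM in clone 4 (-2.27, SE 0.12, adjusted p = 7.36e-08). Parental libraries held 0.743 to 0.830 CPM, so both clones were far above them and clone 4 more so. DKK1, a secreted inhibitor of canonical Wnt signalling, was at 27.1 and 25.1 CPM in clone 2 and 3.02 and 2.17 CPM in clone 4 (3.31, SE 0.21, adjusted p = 2.29e-07). LGR4 and RNF43, a receptor and a ubiquitin ligase that set the number of Wnt receptors, were higher in clone 2 by 1.26 and 1.10. The list as a whole had 4 of 24 members higher in clone 2 and 2 in clone 4, below the share over all genes. Once clone 2 replicate 1 or 2 was omitted, the counts were 3 and 1.

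Of 37 tested TGF-beta and BMP genes 14 were higher in clone 2, 1 was higher in clone 4 and 22 were not called, with a median of 0.40 on the log2 scale. The share called was 40.5% beside 36.5% over all genes. BMP7, a ligand, was at 6.66 and 6.90 CPM in clone 2 and 1.44 and 1.84 CPM in clone 4 (2.06, SE 0.32, adjusted p = 0.00035). TGFBR1, a receptor, was at 45.3 and 43.2 CPM against 20.7 and 17.4 CPM (1.21, SE 0.14, adjusted p = 3.29e-05). ID3, a target that blocks differentiation factors, was at 161 and 158 CPM against 53.3 and 65.7 CPM (1.43, SE 0.21, adjusted p = 0.000464). ACVR2B, an activin receptor on chromosome 3, was the member higher in clone 4 (-0.75, SE 0.16, adjusted p = 0.00282), and without clone 2 replicate 2 no member was.

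Targets of the tumour suppressor p53 leaned to clone 2. Of 30 tested members 12 were higher in clone 2 and none in clone 4, with a median log2 fold change of 0.37. The share called was 40% beside 36.5% over all genes. PLK2, a stress-induced kinase, was at 334 and 338 CPM in clone 2 and 68.7 and 67.0 CPM in clone 4 (2.31, SE 0.20, adjusted p = 8.67e-06). ZMAT3, an RNA-binding growth inhibitor, was at 37.5 and 37.6 CPM against 14.4 and 14.1 CPM (1.40, SE 0.13, adjusted p = 9.1e-06). TP53I3, an oxidoreductase, was at 771 and 737 CPM against 356 and 359.6 CPM (1.08, SE 0.10, adjusted p = 8.8e-06). BTG2 and CDKN1A count in this list and in lists above. RLE scaling, and the fits without clone 2 replicate 1 and without parental replicate 3, each called 1 member higher in clone 4, and the clone libraries alone 2.

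Of 31 homologous recombination genes 3 were higher in clone 2 and 8 in clone 4, a share called of 35.5% beside 36.5% over all genes. BRCA2, on chromosome 13, was at 8.62 and 7.79 CPM in clone 2 and 4.40 and 2.84 CPM in clone 4 (1.16, SE 0.25, adjusted p = 0.00275). BRCA1 went the other way, at 28.2 and 27.0 CPM against 41.4 and 33.1 CPM (-0.44, SE 0.14, adjusted p = 0.026), a call lost without clone 2 replicate 1, clone 2 replicate 2 or clone 4 replicate 1 (adjusted p = 0.102, 0.172 and 0.19). FANCD2, the Fanconi anaemia protein that marks crosslinked DNA, was at 49.6 and 51.3 CPM against 74.3 and 80.8 CPM (-0.62, SE 0.13, adjusted p = 0.00241). RBBP8, which starts the trimming of broken ends, was higher in clone 2 (0.91, SE 0.15, adjusted p = 0.00057). With clone 2 replicate 1 or 2 left out the counts higher in clone 4 were 4 and 4, and without clone 4 replicate 1 the counts were 5 and 5.

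Metabolic genes differed in sugar and lipid steps. In the glycolysis and hypoxia list 14 of 35 tested members were higher in clone 2 and 2 in clone 4. That was 45.7% called, beside 36.5% over all genes. EGLN3, an oxygen sensor, was at 16.9 and 16.4 CPM in clone 2 and 3.02 and 1.84 CPM in clone 4 (2.75, SE 0.23, adjusted p = 2.8e-06), and PKM, the last enzyme of glycolysis, was at 1081 and 1050 CPM against 663 and 613 CPM (0.74, SE 0.10, adjusted p = 0.00016). SLC16A3, which exports lactate, was higher in clone 4 (-0.74, SE 0.15, adjusted p = 0.00237). After clone 2 replicate 2 was left out no member was called higher in clone 4, and without clone 2 replicate 1 or clone 4 replicate 1 the count was 1. Fatty acid genes leaned to clone 4, with 12 of 29 higher there and 2 in clone 2, or 48.3% called. SCD, the main fatty acid desaturase, was at 184 and 179.6 CPM in clone 2 and 393 and 373 CPM in clone 4 (-1.08, SE 0.15, adjusted p = 0.000117). CD36, a fatty acid receptor, was the exception, at 27.1 and 27.96 CPM against 1.37 and 2.00 CPM (4.04, SE 0.19, adjusted p = 2.68e-08). FASN, the fatty acid synthase, was the other member higher in clone 2 (0.63). Without either clone 2 library the count higher in clone 4 was 7.

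Enzymes and transporters of drugs and steroids were higher in clone 2, with 16 of 26 tested members higher there and 3 in clone 4. Called members were 73.1% of those tested, beside 36.5% over all genes. CYP1A1, the cytochrome that the aryl hydrocarbon receptor induces, was at 12.5 and 12.4 CPM in clone 2 and 0.824 and 1.17 CPM in clone 4 (3.65, SE 0.28, adjusted p = 1.49e-06). ABCC3, an export pump, was at 19.97 and 20.7 CPM against 4.88 and 7.43 CPM (1.74, SE 0.24, adjusted p = 0.000131). HSD17B1 and STS, which make active estrogen from precursors, were at 1.37 (SE 0.13, adjusted p = 1.07e-05) and 1.87 (SE 0.23, adjusted p = 6.15e-05) on the log2 scale. SULT2B1, which adds sulfate to sterols, was higher in clone 4, at 42.3 and 52.3 CPM there and 14.8 and 12.4 CPM in clone 2 (-1.80, SE 0.17, adjusted p = 8.52e-06). With replicate 1 or 2 of clone 2 left out the counts higher in clone 2 were 10 and 9.

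Ribosomal protein genes were lower in clone 2. Among small-subunit proteins 22 of 31 were higher in clone 4 and none in clone 2 (median -0.55). Among large-subunit proteins 34 of 46 were higher in clone 4 and 2 in clone 2 (median -0.60). These lists had 71% and 78.3% of tested members called, beside 36.5% over all genes. RPL14 was at 628 and 591 CPM in clone 2 and 1393 and 1625 CPM in clone 4 (-1.31, SE 0.12, adjusted p = 7.12e-06). RPL32 was at 794 and 782 CPM against 1821 and 1975 CPM (-1.27, SE 0.12, adjusted p = 7.78e-06). Both lie on chromosome 3 with RPL15, RPL24, RPL29, RPL35A and RPSA, all higher in clone 4. The 2 members higher in clone 2 were RPL10 on the X chromosome (0.43, SE 0.14, adjusted p = 0.0295) and RPL21 on chromosome 13 (0.56, SE 0.10, adjusted p = 0.00098), both in stretches where clone 2 was higher. RPL10 missed the threshold when clone 2 replicate 1 or 2 or clone 4 replicate 2 was left out (adjusted p = 0.132, 0.115 and 0.175). Without clone 2 replicate 1, clone 2 replicate 2 or clone 4 replicate 2 only 1 large-subunit gene was called higher in clone 2. Many of these genes have pseudogene copies that can share reads.

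Of the 13 protein genes of the mitochondrial genome 10 were higher in clone 4 and none in clone 2 (median -0.52). That was 76.9% called, beside 36.5% over all genes. MT-ND3, a subunit of respiratory complex I, was at 2313 and 2290 CPM in clone 2 and 4153 and 5634 CPM in clone 4 (-1.09, SE 0.15, adjusted p = 0.000166). All 13 were higher in clone 4 replicate 2 than in replicate 1, and without clone 4 replicate 2 the count was 6, while without clone 2 replicate 1 and 2 it was 6 and 5. RNA quality was not recorded in the labels, and its part in this difference was not tested.

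The differences were not spread evenly over the chromosomes. On chromosome 13, 137 of 243 tested genes (56.4%) were higher in clone 2 and 2 (0.823%) in clone 4, with a median log2 fold change of 0.62. The running median of 51 genes stayed between 0.47 and 0.81 over all 193 windows of the chromosome. Relative to parental libraries the median gene of chromosome 13 was at -0.52 in clone 2 and -1.12 in clone 4, so both clones were low and clone 4 lower. Of 14 tested chromosome 13 genes in any list 10 were higher in clone 2 and none in clone 4: RB1, TFDP1, RFC3, BRCA2, CUL4A, SMAD9, EPSTI1, EFNB2, LCP1 and RPL21. Of these LCP1 was not called when replicate 1 of clone 2 or of clone 4 was left out (adjusted p = 0.12 and 0.117), SMAD9 when clone 2 replicate 2 or clone 4 replicate 1 was (0.217 and 0.0841) or with DESeq2 (0.0585), EFNB2 when clone 4 replicate 1 was (0.0504) and RFC3 when any 1 clone library was. Chromosome 16 had 40% of its 870 genes higher in clone 2 and 6.55% in clone 4, chromosome 9 had 34.2% and 9.19%, and chromosome 15 had 33.3% and 8.47%. Chromosome 21 was the reverse, with 8.21% higher in clone 2 and 28.2% in clone 4. Chromosome 14 showed no such difference, with a median of -0.02. DNA copy number was not analysed here, and its part in these results was not tested.

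Shorter stretches stood out too. On chromosome 3, 77 consecutive genes from BRPF1 to PP2D1 had a running median between -0.55 and -0.31, and 40 of those genes were higher in clone 4 and 3 in clone 2. Near the end of the X chromosome 39 genes from HMGB3 to RPL10 had a running median between 0.36 and 0.74, with 21 genes higher in clone 2 and 2 in clone 4. That stretch holds L1CAM, a cell adhesion molecule of nerve and tumour cells, at 29.2 and 30.0 CPM in clone 2 and 2.27 and 2.00 CPM in clone 4 (3.78, SE 0.59, adjusted p = 0.00405). L1CAM missed the threshold when clone 4 replicate 1 or 2 was left out (adjusted p = 0.0711 and 0.0805). On chromosome 9, 162 genes from FAM201A to PALM2 had a running median between 0.31 and 0.82, with 84 genes higher in clone 2 and 4 in clone 4.

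**Figure D4:**
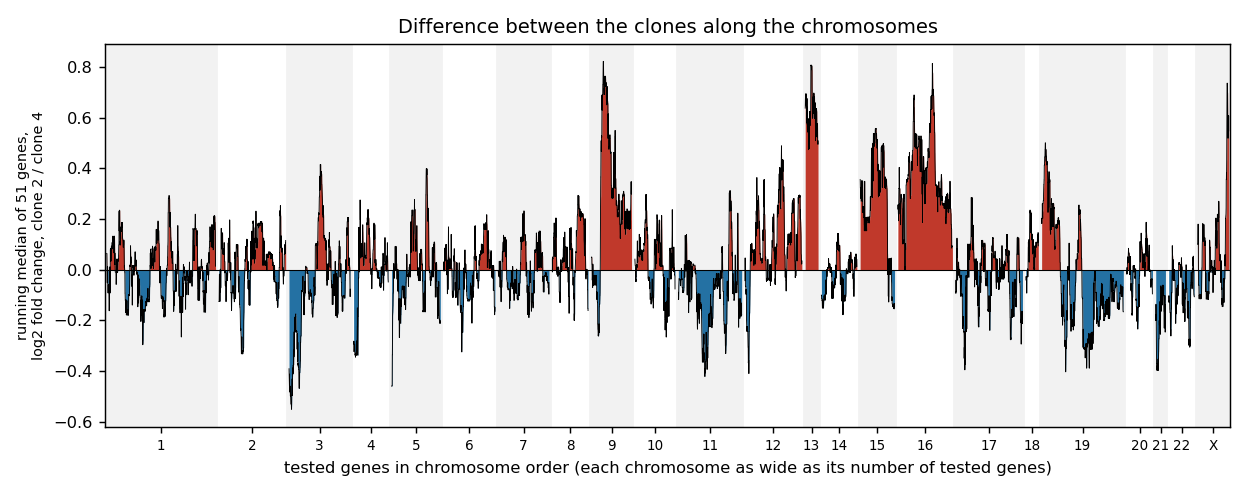
Running median over 51 neighbouring tested genes of the log2 fold change of clone 2 over clone 4 (vertical axis), along genes in chromosome order from chromosome 1 to X. Every window of chromosome 13 lies above 0, between 0.47 and 0.81, and chromosomes 9, 15 and 16 and the end of the X chromosome hold further stretches above 0, while the start of chromosome 3 lies below it.

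The parental libraries give a reference for each difference, as a description without a test. For the 1926 genes called and at least 2-fold apart, the parental mean was placed on the scale from clone 4 to clone 2. It lay between the clones for 613 genes (31.8%), at the clone 2 level for 428 (22.2%), at the clone 4 level for 374 (19.4%), beyond clone 2 for 279 (14.5%) and beyond clone 4 for 232 (12%). RB1, LDHB, NDN, CD36 and L1CAM are examples where parental cells were nearer to clone 2, and FOS, FOSB, TNC, AREG and DKK1 where they were nearer to clone 4. MAGEA3, another cancer-testis gene, had 10 counts in clone 2 and 0 in clone 4 while parental libraries were at 9.67 to 11.2 CPM, so both clones were low. STC1, the secreted glycoprotein stanniocalcin, was an example between the clones, at 6.83 and 8.61 CPM in clone 2, 39.8 and 34.3 CPM in clone 4 and 13.6 to 18.1 CPM in parental libraries (-2.25, SE 0.17, adjusted p = 1.59e-06). KRT4, a keratin of stratified epithelia, was lowest in parental libraries, at 0.890 to 1.98 CPM, and was at 30.1 and 28.02 CPM in clone 2 and 2.61 and 2.17 CPM in clone 4 (3.59, SE 0.24, adjusted p = 4.14e-07). With replicate 2 of clone 2 or of clone 4 left out the count beyond clone 2 was 183 and 185.

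**Figure D5:**
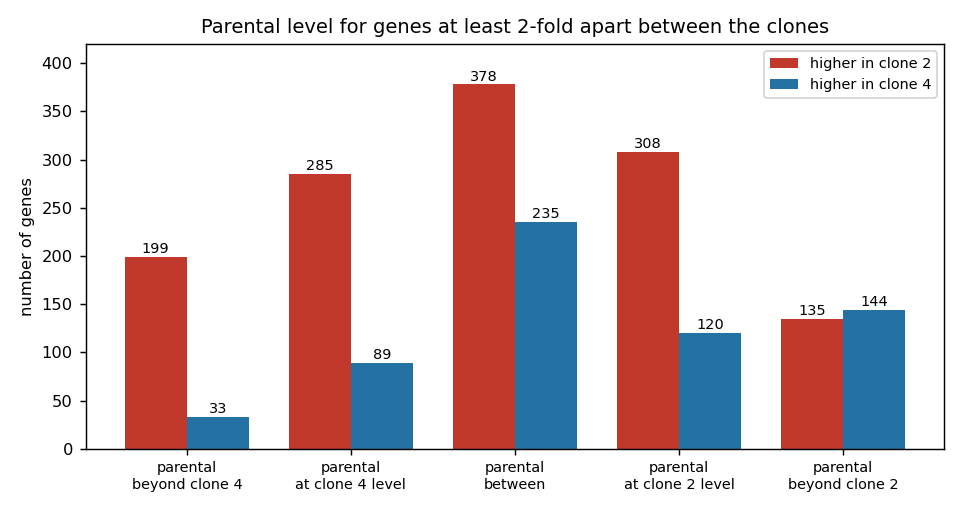
Number of genes at least 2-fold apart between the clones by where the parental mean lies on the scale from clone 4 to clone 2, for genes higher in clone 2 (red) and in clone 4 (blue). The class between the clones is the largest for both directions, with 378 and 235 genes, and all 5 classes are filled.

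The other genes of largest fold are given by their values. HEPHL1, a copper-dependent iron oxidase, was at 45.1 and 40.5 CPM in clone 2 and 2.404 and 1.34 CPM in clone 4 (4.48, SE 0.22, adjusted p = 2.68e-08). CITED1, a coactivator that binds no DNA itself, was at 4.01 and 3.95 CPM in clone 2 and 24.4 and 24.2 CPM in clone 4 (-2.61, SE 0.37, adjusted p = 0.000404). CRABP1, which binds retinoic acid in the cytoplasm, was at 2.47 and 2.36 CPM against 11.95 and 13.02 CPM (-2.37, SE 0.22, adjusted p = 7.18e-06). Parental libraries held 1.17 to 4.80 CPM of CITED1 and 0.953 to 1.42 CPM of CRABP1, so clone 4 lay farther from them than clone 2 did. REEP2, CCNO, TNNI3 and ACOX2 had log2 fold changes of -2.18, -2.16, -2.13 and -2.16. ACOX2, an oxidase of branched fatty acids and bile acid precursors, differed from the other 3 in that clone 4 lay at the parental level, at 19.5 and 16.7 CPM beside 13.8 to 19.5 CPM.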

How the data were processed

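RNA-seq libraries of T47D cells were analysed from whole-number read counts per gene, as the authors deposited them. Per the submitters' processing notes FastQC, CASAVA, STAR and the hg19 build were used; no source used here gives the counting program, annotation release or strand setting. Genes listed by Ensembl ID alone took 1.02% to 1.41% of counts and stayed in. Counts were filtered (filterByExpr, minimum count 10), scaled by TMM and fitted with edgeR 4.0.16 in R 4.3.3 (robust quasi-likelihood, 3 group means, all 7 libraries), tested as clone 2 minus clone 4 and checked on simulated counts. Chromosomes came from GENCODE v29 by Ensembl ID (16913 of 17502 matched) and are used only for gene order; promoter sequences, with GRCh38.p14 coordinates, came from RefSeq. Named genes were the 12 highest and lowest called folds above 2 mean log2 CPM, on-off genes, up to 6 called members per list and a fixed set; list members not called and neighbours of on-off genes were added. The comparison, lists and named genes were chosen with earlier results of these data known. Alternatives were RLE scaling, DESeq2 1.42.0, other filters, a fold threshold, the clone libraries alone, a replicate block and leaving out each library; list counts under each were added after seeing the data. Results for a few genes are not reported here.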

Additional observations from a re-analysis of the deposited data

How the results depend on the processing

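Numbers of calls depended more on which libraries entered than on scaling or tool. Leaving out 1 library at a time gave 3289 to 7348 called genes, 1883 to 3920 higher in clone 2, 1406 to 3428 higher in clone 4 and 1439 to 2102 at least 2-fold apart. The parental mean then lay beyond clone 4 for 156 to 247 genes, at the clone 4 level for 286 to 398, between for 477 to 704, at the clone 2 level for 309 to 604 and beyond clone 2 for 183 to 309. Testing against a fold of 1.5 called 1393 genes, 911 higher in clone 2 and 482 in clone 4, with 1221 at least 2-fold apart. RLE scaling called 6396 and DESeq2 5255. Leaving out 1 library at a time, PGR ranged from -0.42 to 0.16 and NRG4 from -0.0179 to 0.79. Genes near 0 changed sign without being called: SNAI1 was at -0.0232 with RLE scaling, -0.0192 with DESeq2, -0.0261 with the clone libraries alone and -0.0124 with the replicate block, and ranged from -0.20 to 0.24. ABCC9 was at 0.00037, 0.0011 and 0.00018 with no filter, the stricter filter and the block, and ranged from -0.0913 to 0.0751, and GOLT1B ranged from -0.12 to 0.083. The cause was not tested. Replicate numbers were not taken as pairs, since same-numbered deviations of the clones correlated at -0.08; a replicate block called 7831 genes. The block also called ATF3 (0.33, adjusted p = 0.0418), ETV4 (-0.58, adjusted p = 0.0423) and MKI67 (0.34, adjusted p = 0.00778), and it gave 10 and 6 CDK4/6-RB genes, 10 and 7 mitosis genes and 16 and 2 p53 targets higher in clone 2 and clone 4. With 2 libraries a clone and a close pair in clone 2, small changes are the least certain.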

Other observations

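Other gene groups also separated the clones. Of 25 tested adhesion and axon guidance genes 9 were higher in clone 2 and 5 in clone 4. That was 56% called, beside 36.5% over all genes. NRP1, a co-receptor of semaphorins and VEGF, had a log2 fold change of 3.32 (SE 0.48), and SEMA3D and SEMA3E, 2 secreted semaphorins, had 2.38 and 2.01. PLXND1, a semaphorin receptor, and EPHA4, an ephrin receptor, were higher in clone 4, at -1.33 and -1.04. Of 9 tested cancer-testis genes 4 were higher in clone 2 and 1 in clone 4, and without either clone 2 library none was higher in clone 4. The cancer-testis share called was 55.6%, beside 36.5% over all genes. Of the 4 higher in clone 2, MAGEA3 and MAGEA12 were near the floor in both clones. Their means were 0.348 and 0.607 CPM in clone 2, 0 and 0.0761 CPM in clone 4, and 10.5 and 37.1 CPM in parental libraries. Of 15 tested clustered histone genes 6 were higher in clone 2 and none in clone 4 by edgeR's quasi-likelihood test. The histone share called was 40%, near the 36.5% over all genes.

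Among Notch genes 8 of 21 were higher in clone 2 and 3 in clone 4, a share called of 52.4% beside 36.5% over all genes. NOTCH1, a receptor, was higher in clone 2 by 1.11 on the log2 scale, and DLL1, a ligand, and MFNG, which modifies the receptors, were higher in clone 4, at -0.78 and -0.87. DLL1 missed the threshold when replicate 2 of clone 2 or of clone 4 was left out (edgeR adjusted p = 0.0927 and 0.0685), and MFNG when clone 2 replicate 1 or 2, clone 4 replicate 2 or parental replicate 2 was (0.128, 0.163, 0.442 and 0.0507), with DESeq2 (0.074) and with the clone libraries alone (0.0624). The counts were 4 and 1 or 3 and 0 when replicate 1 or 2 of clone 2 was left out, 5 and 4 or 5 and 0 when replicate 1 or 2 of clone 4 was, and 7 and 1 when parental replicate 2 was. Several single genes of large fold belong to no list: ANXA1, a phospholipid-binding mediator of inflammation, was at 3.00 (SE 0.17) and HSPB8, a small heat shock protein, at 3.64 (SE 0.18).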
